A study of Mus musculus with 8 samples.

Results

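The red-cell genes of the embryonic gonad were followed through the probe sets annotated to Hba-x, Hbb-y, Hbb-bh1, Hba-a1 and Alas2. The annotation gave 7 such probe sets of the 12488 on the array, for 5 of the 8949 genes annotated, and all 7 passed the filter on low values. Hba-x, Hbb-bh1 and Alas2 had 1 probe set each. Hbb-y had 1 of its own and 1 of the kind that Affymetrix marks as shared by a gene family, and Hba-a1 had 1 of its own and 1 annotated to both Hba-a1 and its near-identical copy Hba-a2. Signal of family-shared probe sets cannot be assigned to a single gene.

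The data came from 8 arrays of mouse embryonic gonad, 1 array for each combination of sex, genotype and stage, with no replicates. The groups were KO and WT males at E14.5, KO and WT females at E14.5, KO and WT males at E12.5, and KO and WT females at E12.5, where KO is the Wnt4 knock-out and WT the wild type. Embryos of each stage were chosen by their morphology, gonads were kept frozen until PCR had given the genotype, and the sources used here do not give the strain, the allele or how many embryos stand behind an array. Levels are given as log2 signal after each array was shifted to a common median, differences as log2 differences, and errors as SEs of a limma fit across all 8452 probe sets that passed the filter. With 1 array a group, that fit takes its error from how far the KO minus WT difference varies between the stages within each sex, and p-values measure only this spread.

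Hemoglobin is built from α-like and β-like chains that change during development. In the mouse, primitive red cells from the yolk sac make the embryonic chains, ζ (Hba-x), εy (Hbb-y) and βh1 (Hbb-bh1), together with adult α chains, while definitive red cells from the fetal liver make adult α (Hba-a1, Hba-a2) and adult β chains. Alas2 is the erythroid form of 5-aminolevulinate synthase, the first enzyme of heme synthesis. The gonad is not a site of red-cell formation, and a dissected gonad includes the blood in its vessels.

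In GRCm38.p6, Hba-x lies on chromosome 11 at 32276600 to 32278116 and Hba-a1 on the same chromosome at 32283672 to 32284486. Hbb-bh1 and Hbb-y lie on chromosome 7, at 103841638 to 103843162 and at 103851754 to 103853207, and Alas2 lies on chromosome X at 150547417 to 150570622. The RefSeq promoter table held 4 of the 5 genes, without Hbb-bh1. The 250 bases before each start are shown because these 4 genes are all expressed in red cells but differed in how their transcripts changed between stages. Capitals mark matches, on either strand, to GATAA (the core bound by GATA factors), CCACCC (a core bound by Klf1), CCAAT and TATAA. The windows are chr11:32276350-32276599 on the plus strand for Hba-x, chr7:103853208-103853457 on the minus strand for Hbb-y, chr11:32283422-32283671 on the plus strand for Hba-a1 and chrX:150547167-150547416 on the plus strand for Alas2, each printed 5′ to 3′ along its gene.
Hba-x: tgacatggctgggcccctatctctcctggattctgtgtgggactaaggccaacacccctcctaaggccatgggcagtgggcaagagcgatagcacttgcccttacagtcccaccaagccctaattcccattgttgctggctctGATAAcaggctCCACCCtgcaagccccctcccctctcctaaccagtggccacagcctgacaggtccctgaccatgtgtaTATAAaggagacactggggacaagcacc
Hbb-y: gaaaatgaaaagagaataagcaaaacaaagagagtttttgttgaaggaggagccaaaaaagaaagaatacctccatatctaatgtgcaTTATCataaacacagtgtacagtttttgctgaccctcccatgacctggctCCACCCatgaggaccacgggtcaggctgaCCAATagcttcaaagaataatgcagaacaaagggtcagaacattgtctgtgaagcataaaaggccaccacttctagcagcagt
Hba-a1: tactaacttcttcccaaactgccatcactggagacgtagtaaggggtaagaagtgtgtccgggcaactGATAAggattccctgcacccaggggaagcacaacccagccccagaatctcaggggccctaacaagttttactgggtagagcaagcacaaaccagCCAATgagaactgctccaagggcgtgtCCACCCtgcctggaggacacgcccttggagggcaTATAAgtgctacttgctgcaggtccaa
Alas2: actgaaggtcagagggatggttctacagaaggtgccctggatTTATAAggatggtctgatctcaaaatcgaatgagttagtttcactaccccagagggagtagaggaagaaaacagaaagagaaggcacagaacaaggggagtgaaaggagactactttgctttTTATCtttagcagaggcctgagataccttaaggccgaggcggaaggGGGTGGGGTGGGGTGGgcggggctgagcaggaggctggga

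All 4 windows held GATAA and CCACCC in some orientation, and 5% of the 32851 promoters in the table held both. Singly, GATAA was found in 22.6% of them, CCACCC in 28.1%, CCAAT in 33.8% and TATAA in 22.8%. Hba-a1 held all 4 motifs, as did 0.481% of promoters. Hba-x had its TATAA 28 bases before the start and Hba-a1 27 bases before it, where a TATA box usually lies. In Alas2 the TATAA match began 207 bases before the start and overlapped a match on the opposite strand, and 3 overlapping CCACCC matches, all on the opposite strand, lay 25 to 40 bases before the start. CCAAT was matched in Hbb-y and Hba-a1. A match describes letters only, and binding was not measured.

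Several facts of the series bear on the globin values. The arrays of both E14.5 males stood apart: they correlated at 0.996 with each other and at 0.884 to 0.908 with the other 6 arrays, which correlated at 0.979 to 0.997 among themselves. The deposited median was lower at E14.5 than at E12.5, by 0.79 and 0.77 in KO and WT males and by 0.24 and 0.27 in KO and WT females, and centring removed this shift. The WT female E14.5 array went partly against its label, with the Y-linked Eif2s3y at 7.63 against 4.86 to 6.04 on the other female arrays and 6.91 to 8.12 on the male arrays, and with Xist at 7.10 against 7.69 to 8.13 on the other female arrays. The Eif2s3y probe set is of the family-shared kind. Xist was at 4.1 to 4.8 on the male arrays, so that on this array it lay nearer to the females. Amh was at 8.1 on it, against 7.8 to 7.9 on the other female arrays and 9.0 to 9.7 on the male arrays. Because of the Eif2s3y value, female stage differences are also given for the KO pair alone, which does not use the WT female E14.5 array. Wnt4 was lower on the KO array than on the WT array in all 4 pairs, at 9.19 against 9.42 in E14.5 males, 8.32 against 9.45 in E14.5 females, 8.34 against 9.26 in E12.5 males and 8.59 against 10.19 in E12.5 females.

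Transcripts of the embryonic globins were lower at E14.5 than at E12.5 in every pair of arrays, whereas those of the shared adult α probe set and Alas2 were higher at E14.5 in both female pairs and lower in both male pairs. The male Alas2 difference did not pass the test, but was -0.95 and passed without centring, and turned its sign after quantile normalization. Hba-x, the embryonic α-like chain, fell 3.13-fold in females and 3.99-fold in males. Hbb-bh1 fell 1.33-fold in females and 2.30-fold in males. In bulk tissue, fewer red cells of a kind and less of a transcript per cell cannot be told apart.

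At E14.5 Hba-x was at 12.06 and 11.47 in KO and WT males and at 11.10 and 11.70 in KO and WT females, against 13.68 and 13.84 in KO and WT males and 13.01 and 13.08 in KO and WT females at E12.5. The 4 arrays of E14.5 lay below the 4 of E12.5 with no overlap. How many of all probe sets separated the stages in this way, here and below, was not counted. Over both sexes 74.2% passed the stage test. Ordered by level, the 1 step between neighbours that exceeded the fit's 95% spread for a pair of arrays, 0.79, was the step of 0.95 between the lowest E12.5 array and the highest E14.5 array. That spread holds for 1 pair set beforehand and, here and below, was not adjusted for the number of steps compared. The change was -1.65 ± 0.21 in females (95% interval -2.21 to -1.09, adjusted p = 0.0141 by limma with Benjamini-Hochberg adjustment) and -2.00 ± 0.21 in males (adjusted p = 0.000752 by the same limma fit). In the KO female pair Hba-x had the lowest difference of all 8452 fitted probe sets, -1.91, and in the WT female pair it was 4th from the lowest, at -1.38. With any 1 of the 8 arrays left out, the female value missed the threshold (adjusted p = 0.111 to 0.177 by limma), as did every female stage value below, and the male value missed it without either WT male array (largest adjusted p = 0.0535).

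The background differed sharply between the sexes. In females 23.1% of the fitted probe sets passed the stage test. Of all fitted probe sets, 14.6% passed as lower and 8.41% as higher at E14.5. In males 77.8% passed, 39.9% of all fitted probe sets as lower and 38% as higher. A pass in males therefore says little about a globin. Between single arrays of the KO female pair 0.26% of probe sets were at least 2-fold lower at E14.5, and 0.45% in the WT female pair. These few included Hba-x in both pairs and the Hbb-y probe set of its own in the KO pair. In males the share was 13.7% in each pair.

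Hbb-y encodes the εy chain, the main β-like chain of primitive red cells. At E14.5 its own probe set read 11.89 and 10.98 in KO and WT males and 11.73 and 12.26 in KO and WT females, against 13.68 and 13.73 in KO and WT males and 12.86 and 12.95 in KO and WT females at E12.5. All E14.5 arrays were below all E12.5 arrays, with the WT male of E14.5 the lowest, but no step between neighbours in the order exceeded the 95% spread of 0.91. In males the change was -2.28 ± 0.25 (adjusted p = 0.000769 by limma). In females it was -0.91 ± 0.25, with a 95% interval of -1.55 to -0.27, and missed the threshold (adjusted p = 0.0584 by limma). The KO and WT female pairs gave -1.13 and -0.69.

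The family probe set of Hbb-y showed the same order of stages with smaller differences. It read 12.70 and 12.03 in KO and WT males and 12.95 and 13.27 in KO and WT females at E14.5, against 14.22 and 14.23 in KO and WT males and 13.61 and 13.65 in KO and WT females at E12.5. The groups did not overlap by stage, but the step of 0.34 between the stages did not exceed the 95% spread of 0.65. The step that did, 0.67, lay between the KO and WT males of E14.5, a gap that itself enters the fit's error. At E14.5 both females were above both males. The change was -1.86 ± 0.18 in males (adjusted p = 0.000493 by limma) and -0.52 ± 0.18 in females (adjusted p = 0.0974 by limma), so that in females it did not pass. The KO female pair alone gave -0.66.

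Hbb-bh1 encodes the βh1 chain, which in mouse primitive red cells is made earliest. Its probe set read 9.10 and 9.03 in KO and WT males and 9.06 and 9.14 in KO and WT females at E14.5, against 10.18 and 10.36 in KO and WT males and 9.46 and 9.55 in KO and WT females at E12.5. The 4 arrays of E14.5 lay within 9.03 to 9.14, while at E12.5 both males were above both females. In its order of levels, the step of 0.63 between the E12.5 males and females and the step of 0.32 between the E12.5 females and the E14.5 arrays exceeded the 95% spread of 0.28. The fall was 0.41 on the log2 scale in females (SE 0.08, adjusted p = 0.0268 by limma) and 1.20 in males (SE 0.08, adjusted p = 0.000149 by limma). The KO female pair alone gave -0.40.

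**Figure D1:**
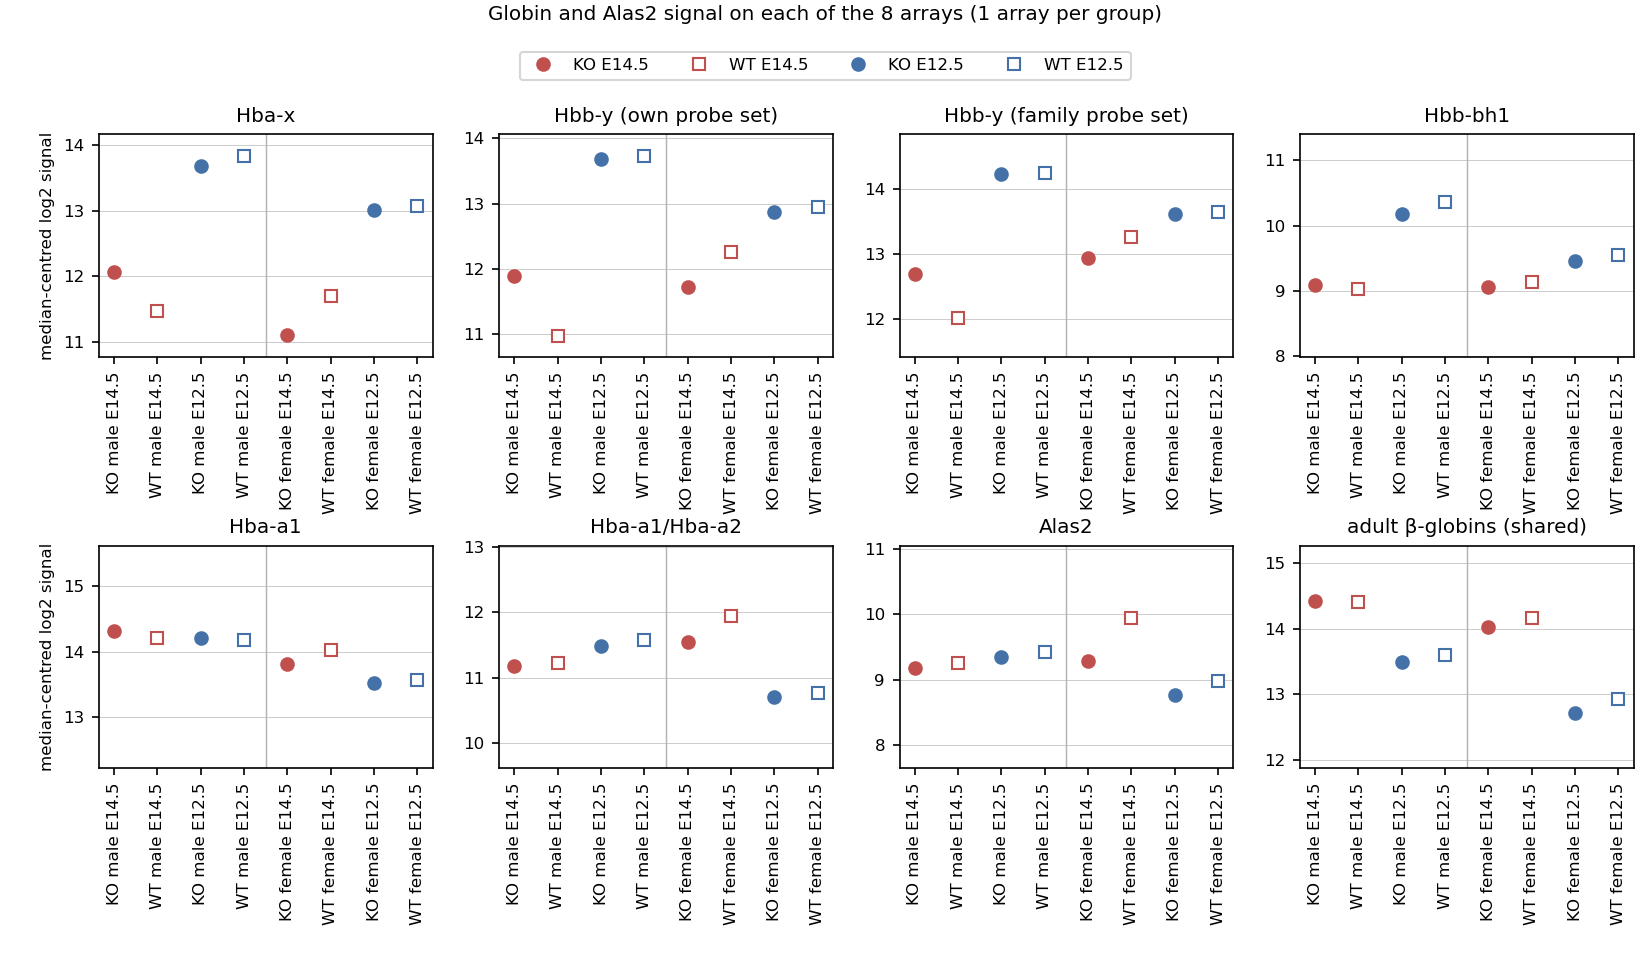
Median-centred log2 signal (y axis) of the 7 probe sets and of the adult β-globin probe set on each of the 8 arrays (x axis), 1 point per array, with males left of the line and females right of it. Each y axis spans the same number of log2 units but has its own position, so levels are not to be set against each other between panels. Red points (E14.5) lie below blue points (E12.5) throughout the top row, and Hba-a1 varies least, from 13.53 to 14.32.

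Hba-a1 encodes the adult α chain, which primitive and definitive red cells both use. It read 14.32 and 14.20 in KO and WT males and 13.81 and 14.03 in KO and WT females at E14.5, against 14.21 and 14.18 in KO and WT males and 13.53 and 13.57 in KO and WT females at E12.5. After centring, male arrays were higher than female arrays at each stage, and in males the stages lay close together. Without centring, the male minus female difference at E14.5 was 0.07 in the KO pair and -0.17 in the WT pair. The centred values of Hba-a1 lie near the top of the arrays, whose highest centred values were 14.18 to 14.65. Compression of the signal can hide differences there, and whether it did was not tested. The Hba-a1 probe set rose in females by 0.37 ± 0.07 (adjusted p = 0.0264 by limma), though without centring the female value was 0.12 and did not pass, and the KO female pair alone gave 0.29. Its male difference of 0.06 ± 0.07 did not pass (95% interval -0.12 to 0.24, adjusted p = 0.443 by limma) and was -0.72 without centring and -0.24 after quantile normalization, where it did.

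The dimmer probe set shared by Hba-a1 and Hba-a2 gave a wider range. It read 11.18 and 11.23 in KO and WT males and 11.54 and 11.94 in KO and WT females at E14.5, against 11.49 and 11.57 in KO and WT males and 10.70 and 10.76 in KO and WT females at E12.5. The WT female of E14.5 was the highest array and the E12.5 females the lowest. It rose by 1.01 ± 0.09 in females (2.02-fold, adjusted p = 0.0102 by limma), and in the KO and WT female pairs it was 0.84 and 1.18 higher. In males it was lower by a small margin, -0.33 ± 0.09 (adjusted p = 0.0235 by limma), which became -0.02 (adjusted p = 0.825 by limma) after quantile normalization and missed the threshold without any 1 of the 4 male arrays (largest adjusted p = 0.269). Without centring the male difference was -1.11.

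Alas2 read 9.18 and 9.25 in KO and WT males and 9.28 and 9.94 in KO and WT females at E14.5, against 9.35 and 9.42 in KO and WT males and 8.76 and 8.98 in KO and WT females at E12.5. The WT female of E14.5 stood above the next array by 0.52, more than the 95% spread of 0.42, and no other step between neighbours exceeded it. Alas2 rose by 0.74 ± 0.11 in females (1.67-fold, adjusted p = 0.0183 by limma). Without the WT pair the female difference was 0.52. In males the difference was -0.17 ± 0.11 (95% interval -0.47 to 0.13, adjusted p = 0.226 by limma). It was -0.95 without centring, where it passed, and 0.041 after quantile normalization.

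Of the 7 probe sets, then, 3 were higher, 2 lower and 2 short of the threshold at E14.5 in females, where 23.1% of all probe sets passed. In males 5 were lower and 2 did not pass, where 77.8% passed. Over both sexes 3 were higher and 4 lower, where 74.2% passed. The difference between the sexes in the stage effect, males minus females, passed for 6 of the 7, all more negative in males, with 69% of all probe sets passing that test. The exception was Hba-x, at -0.35 ± 0.30 (95% interval -1.14 to 0.44, adjusted p = 0.346 by limma). The male side of this comparison rests on the 2 arrays that stood apart. With any 1 array left out, Hbb-y and Hba-a1 no longer passed it, and Hbb-bh1 passed it each time.

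**Figure D2:**
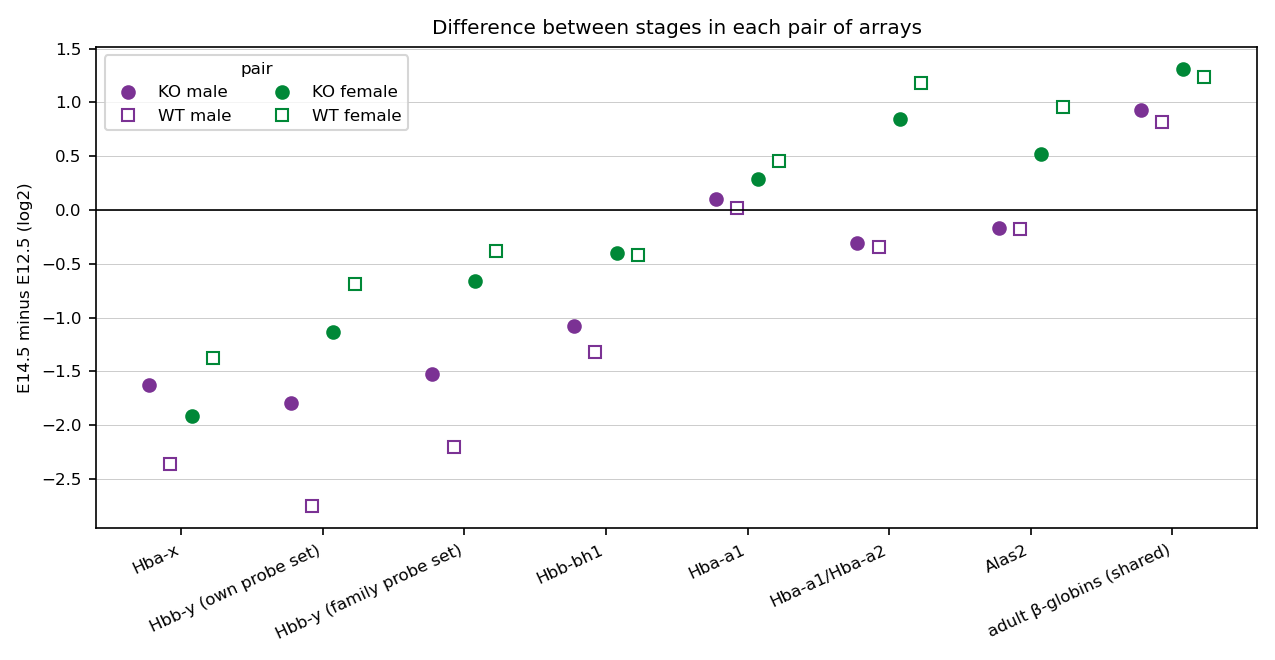
Difference E14.5 minus E12.5 (log2, y axis) in each of the 4 pairs of arrays for the 7 probe sets and the adult β-globin probe set (x axis), with purple for males, green for females, filled circles for KO and open squares for WT. All 16 points of the 4 embryonic probe sets lie below 0, adult β-globin lies above 0 in all pairs, and the shared adult α probe set and Alas2 lie above 0 in females and below 0 in males, where the Alas2 estimate turns to 0.041 after quantile normalization.

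Adult β-globin is the partner of adult α in definitive red cells. A probe set annotated to Hbb-bt, Hbb-bs, Hbb-b2 and Hbb-b1 read 14.42 and 14.41 in KO and WT males and 14.03 and 14.16 in KO and WT females at E14.5, against 13.50 and 13.60 in KO and WT males and 12.72 and 12.93 in KO and WT females at E12.5. All 4 arrays of E14.5 were above all 4 of E12.5. It rose by 1.27 ± 0.06 in females (2.42-fold, adjusted p = 0.00652 by limma) and by 0.87 ± 0.06 in males (adjusted p = 0.000198 by limma), though without centring the male value was 0.09 and did not pass. The KO female pair alone gave 1.31 for it and 1.24 for a separate probe set of Hbb-b2. That Hbb-b2 probe set rose by 1.27 ± 0.14 in females (adjusted p = 0.0110 by limma) and was 0.48 lower in males (SE 0.14, adjusted p = 0.0253 by limma, not passing when a WT male or any female array was left out). A further probe set with the annotation of the first lay between 3.54 and 4.53 on all arrays, under the floor, so no stage direction was taken from it.

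A shift of a whole array cancels in a difference between an embryonic and an adult probe set on that array, though a change in the shape of its distribution, as in quantile normalization, does not. The change of this difference between stages was taken for all pairings of the 4 embryonic with the 4 adult globin probe sets. It was negative in 64 of 64 combinations of pairing and array pair, from -3.57 to -0.57. Hba-x against Hba-a1 changed by -1.73 and -2.38 in the KO and WT male pairs and by -2.20 and -1.83 in the KO and WT female pairs, so that the sexes overlapped. Hba-x against the dimmer shared α probe set changed by -1.32 and -2.02 in the KO and WT male pairs and by -2.76 and -2.56 in the KO and WT female pairs, with both females beyond both males. Hbb-y against adult β-globin changed by -2.73 and -3.57 in the KO and WT male pairs and by -2.45 and -1.92 in the KO and WT female pairs, with both males beyond both females. Which sex showed the larger change therefore depended on the pairing. The range for Hbb-bh1 against adult β-globin was -2.14 to -1.65. Hba-a1 on all arrays and adult β-globin at E14.5 lie near the top of the signal range, so that the sizes taken against them may be affected by compression, which was not tested. The pairings share probe sets and arrays and are not independent, so no test was made.

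**Figure D3:**
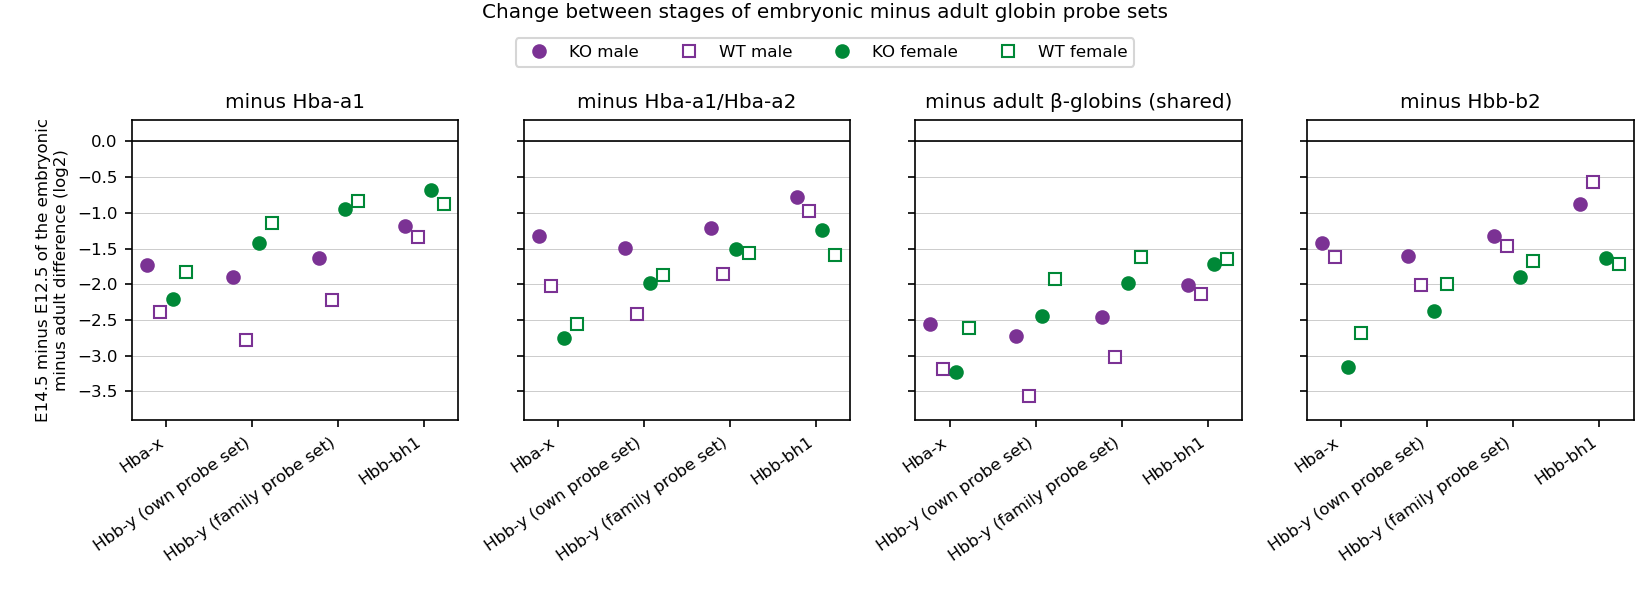
Change between stages, E14.5 minus E12.5, of the embryonic minus adult log2 difference on the same array (y axis), for the 4 embryonic globin probe sets (x axis) against each of the 4 adult globin probe sets (panels), 1 point per pair of arrays. All 64 points lie below 0, between -3.57 and -0.57.

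At E12.5, all 7 probe sets were higher in males than in females in both genotypes. The difference was 0.59 to 0.82 in the KO pair and 0.44 to 0.81 in the WT pair, so every one lay above at least 96.7% of the fitted probe sets of its pair. By limma, Hbb-bh1 was 0.76 ± 0.08 higher (adjusted p = 0.0214), the shared α probe set 0.80 ± 0.09 (adjusted p = 0.0221), Hba-a1 0.65 ± 0.07 (adjusted p = 0.0220) and Alas2 0.51 ± 0.11 (adjusted p = 0.0473). Hba-x, at 0.72 ± 0.21, and Hbb-y, at 0.80 ± 0.25 and 0.60 ± 0.18 for its own and its family probe set, did not pass (adjusted p = 0.0825, 0.0872 and 0.0809 by limma). So 4 of 7 passed as higher in males, where 7.79% of all probe sets did and 16.3% passed in either direction. This comparison was added after the values had been seen. With any 1 array left out none of the 7 passed, and the smallest adjusted p among the 4 was 0.0888.

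The adult β-globin probe set was 0.72 ± 0.06 higher in males (adjusted p = 0.0214 by limma). Slc4a1, the anion exchanger of the red-cell membrane, was 0.65 ± 0.06 higher (adjusted p = 0.0214 by limma), and Bpgm, which makes the red-cell metabolite 2,3-bisphosphoglycerate, 0.48 ± 0.06 higher (adjusted p = 0.0225 by limma). Of the 10 fitted genes of the red-cell membrane and enzyme list, these 2 passed as higher, and Tspan33 passed as lower, at -0.37 ± 0.06 (adjusted p = 0.0294 by limma), with a median of 0.07 against 0 for all probe sets. The summed signal of the 13 genes of the list with a probe set was 9049 and 9007 in KO and WT males and 8311 and 8612 in KO and WT females. Endothelial markers had 1 of 10 fitted genes passing, 9 of them positive, with a median of 0.21 and a summed signal of 5827 and 5202 in KO and WT males against 4784 and 4951 in KO and WT females. Hybridisation spike-in probe sets were also higher in males at E12.5, with a mean of 9.78 and 9.48 in KO and WT males against 8.83 and 8.85 in KO and WT females. The 3′ minus 5′ gap of the actin control probe sets was 1.10 and 0.96 against 0.49 and 0.48. At E14.5, where the globins had no common shift after centring, spike-in means were 10.09 and 9.98 in KO and WT males against 9.05 and 8.88 in KO and WT females. The actin gap there was 1.09 and 1.37 against 0.55 and 0.77. The part of the spike-in and actin differences in the E12.5 globin difference was not tested.

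**Figure D4:**
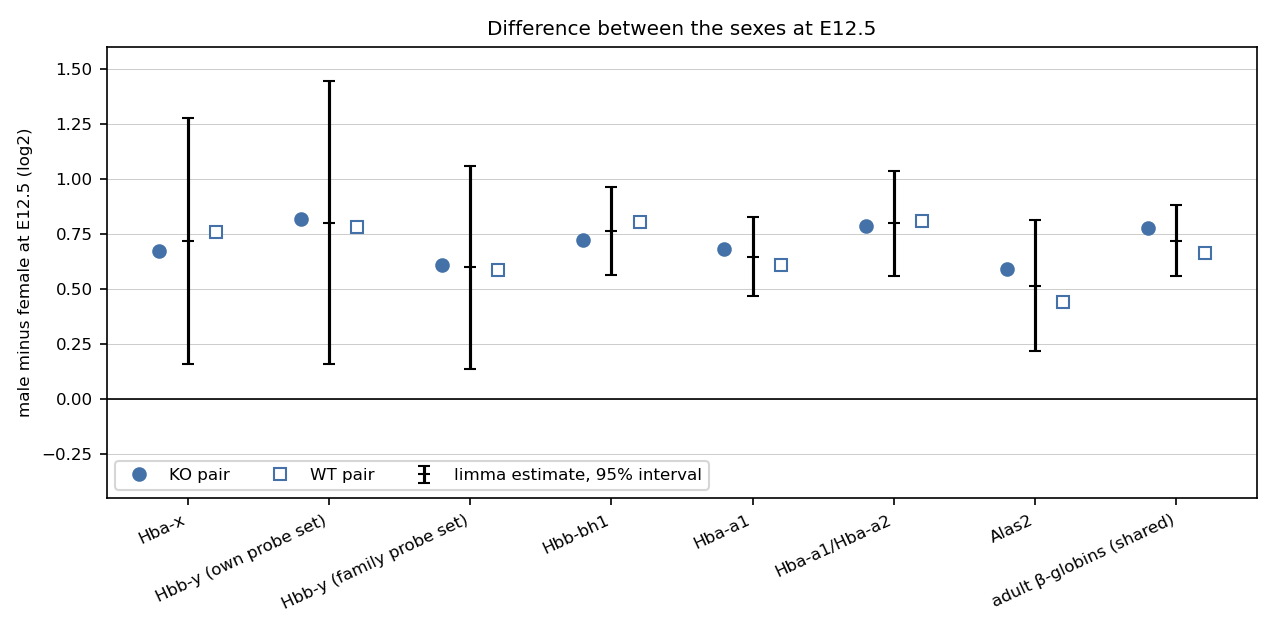
Male minus female difference at E12.5 (log2, y axis) for the 7 probe sets and the adult β-globin probe set (x axis), with a filled circle for the KO pair, an open square for the WT pair, and a dash with bars for the limma estimate and its 95% interval, not adjusted for the number of probe sets tested. All points lie above 0, from 0.44 to 0.82.

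At E14.5 no such common shift was seen after centring. In the KO pair the male minus female difference ran from -0.37 for the shared α probe set to 0.96 for Hba-x, with 4 of 7 positive. In the WT pair it ran from -1.28 for Hbb-y to 0.18 for Hba-a1, with 1 of 7 positive. This depended on centring. Without it the WT pair ran from -1.62 for Hbb-y to -0.17 for Hba-a1, so that every probe set was lower in the male. The KO pair then ran from -0.80 for the shared α probe set to 0.52 for Hba-x. With centring, 3 of 7 passed as higher in males averaged over genotypes and stages. These were Hba-x by 0.54, Hbb-bh1 by 0.36 and Hba-a1 by 0.49, where 36.5% of all probe sets passed in that direction.

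The Wnt4 knock-out was not tied to a globin difference that passed the test. Over both sexes, 0 of 7 probe sets passed, with adjusted p between 0.841 and 0.963 by limma, as did 0% of the 8452 probe sets, of which 489 had an unadjusted p under 0.05 (962 in females alone and 405 in males alone). In females the adjusted p lay between 0.434 and 0.686 and in males between 0.793 and 0.898, and the difference in the KO effect between the sexes gave 0.438 to 0.907, all by limma. These p-values do not show that KO and WT gonads were alike, since the 95% intervals over both sexes allowed for Hba-x a KO minus WT difference of -0.46 to 0.33 and for Hbb-y one of -0.40 to 0.51.

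Over both sexes and in females, Alas2 had the smallest p of the 7. It was lower in KO than in WT in all 4 pairs, with differences of -0.66 in E14.5 females, -0.22 in E12.5 females and -0.07 in males at each stage. The estimate was -0.26 ± 0.08 over both sexes (unadjusted p = 0.0265, adjusted p = 0.841 by limma) and -0.44 ± 0.11 in females (adjusted p = 0.434 by limma). The female value uses the WT female E14.5 array, which goes partly against its label. At E14.5 Hba-x and Hbb-y differed between genotypes in opposite directions in the sexes, without a test at a single stage. KO minus WT was 0.58 in males and -0.60 in females for Hba-x, and 0.91 in males and -0.53 in females for Hbb-y. Signs were also opposite for Hbb-bh1, at 0.06 in males and -0.08 in females. Among adult probe sets they were opposite for Hba-a1 (0.11 and -0.21) and Hbb-b2 (0.31 and -0.28). The shared α probe set was lower in KO in both sexes (-0.05 and -0.40). The female values use the same WT female E14.5 array. At E12.5 the differences of Hba-x and Hbb-y were smaller, -0.16 and -0.07 for Hba-x and -0.05 and -0.09 for Hbb-y in males and females.

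The 4 embryonic probe sets moved together over the 8 arrays, with Pearson's r between 0.863 and 0.987 for the 6 pairs among them. Alas2 followed the shared adult α probe set at r = 0.944 over 8 arrays and at the same r when the E14.5 males were left out, over 6 arrays. Hba-x correlated at -0.25 with Alas2 and at -0.05 with Hba-a1, and without the E14.5 males at -0.32 and 0.24, so that the sign with Hba-a1 turned. These values describe 8 arrays that share their stages and sexes and carry no test. Outside the 5 genes, likeness was sought among 2749 genes whose fitted probe set varied by at least 1 on the log2 scale over the arrays. The genes most like the mean of Hba-x, Hbb-y and Hbb-bh1 were Marcksl1 (r = 0.994), Nono (0.979), Nudt4 (0.979), Hsd3b6 (0.974) and Ctbp2 (0.972). Those most like Hba-a1 were Uba1y, a gene of the Y chromosome (0.954), Ptp4a3 (0.933), Col9a3 (0.931), Larp7 (0.929) and Gstm2 (0.926). For Alas2 they were Gkap1 (0.867), the adult β-globin gene Hbb-b2 (0.852), Adcy7 (0.757), Fdx1 (0.753) and Me1 (0.743). Without the E14.5 males, over 6 arrays, these r lay between 0.965 and 0.998 for the embryonic mean, 0.929 and 0.984 for Hba-a1, and 0.745 and 0.908 for Alas2.

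Other red-cell genes gave no common direction between stages in females. Of 25 genes of the red-cell membrane and its enzymes, 13 had a probe set and 10 passed the filter, with 2 higher and 3 lower at E14.5, where 8.41% of all probe sets were higher and 14.6% lower, and a median of 0.04 against -0.02 for all probe sets. Slc4a1 fell by 0.37 (adjusted p = 0.0189), Car2, a carbonic anhydrase, by 0.40 (adjusted p = 0.0332) and Prdx2, a peroxide-removing enzyme abundant in red cells, by 0.35 (adjusted p = 0.0256), all by limma. The KO female pair alone gave -0.43, -0.32 and -0.42 for these genes. The tetraspanin Tspan33 rose by 0.27 (0.26 in the KO pair). The water channel Aqp1 passed as higher, but lay under the floor in both E12.5 females, so that its fitted difference of 0.22 depends on the floor and was 0.54 without it (0.39 in the KO pair). The summed signal of this list was 5748 and 5496 in KO and WT males and 6808 and 7619 in KO and WT females at E14.5, against 9049 and 9007 in KO and WT males and 8311 and 8612 in KO and WT females at E12.5. Prdx2 alone made up 55.4% to 70.0% of each sum, and without it, a sum taken after the values had been seen, the levels of the 12 other genes overlapped, at 2394 to 2705 at E14.5 against 2497 to 2883 at E12.5. In males 2 of the 10 were higher and 5 lower, where 77.8% of all probe sets passed.

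In the heme and iron list, 14 of 20 genes had a probe set and 11 were fitted, of which 0 were higher and 2 lower in females, where 23.1% of all probe sets passed, with a median of -0.07. These were Alad, the enzyme after Alas2 in the pathway, which fell by 0.38 (adjusted p = 0.0171 by limma), and Ppox, a late enzyme of the pathway, which fell by 0.71 (adjusted p = 0.0118 by limma). The KO female pair alone gave -0.35 for Alad and -0.61 for Ppox. In males 5 were higher and 4 lower, close to the 77.8% of all probe sets that passed, and Ppox was 0.38 higher. Among 14 fitted erythroid regulators, 3 were higher and 2 lower in females, against 23.1% of all probe sets in either direction, with a median of -0.17. The 3 higher ones were Gata1, Klf1 and Gfi1b, transcription factors of red-cell formation, with differences of 0.17, 0.23 and 0.14, and these signs turned without centring (-0.072, -0.017 and -0.0029). Gfi1b lay under the floor in both E12.5 females and Gata1 in the WT one, so their differences depend on the floor. Without it Gfi1b gave 0.25 and Gata1 0.18, and Gata1 did not pass. With a floor at the 20th percentile neither Gata1 nor Klf1 passed. The KO female pair alone gave 0.19, 0.26 and 0.29 for Gata1, Klf1 and Gfi1b without a floor. Kit, a receptor that germ cells carry as well as blood progenitors, fell by 1.23 (adjusted p = 0.0103 by limma) and Jak2, a kinase of the erythropoietin receptor, by 0.40 (adjusted p = 0.0107 by limma), with -1.43 and -0.36 in the KO female pair alone, where the E14.5 array of Jak2 lay under the floor. In males 5 of these regulators were higher and 5 lower, near the 77.8% of all probe sets.

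Markers of other cells that blood or vessels could bring were read beside the globins. Between stages in females, macrophage markers had 3 higher and 1 lower of 10 fitted, endothelial markers 0 of 10, leukocyte markers 1 higher of 4, megakaryocyte and platelet markers 0 of 2 and fetal liver markers 0 of 2, where 23.1% of all probe sets passed. The summed endothelial signal was 4619 and 4432 in KO and WT males and 5159 and 4818 in KO and WT females at E14.5, against 5827 and 5202 in KO and WT males and 4784 and 4951 in KO and WT females at E12.5. The summed macrophage signal was 2533 to 2943 at E14.5 against 1984 to 2301 at E12.5, with no overlap. In the E14.5 males the summed leukocyte signal was 1701 and 1782 in KO and WT, against 802 to 987 on the other 6 arrays. The summed megakaryocyte and platelet signal was likewise 1005 and 1032 in these males, against 488 to 534 on the other 6 arrays. Both sums took in genes that failed the filter, which 4 of 8 leukocyte and 2 of 4 megakaryocyte and platelet genes passed. In the latter sum Gp9 was the brightest gene, at 9.2 and 9.3 in KO and WT E14.5 males against 7.8 to 8.2 elsewhere. The E14.5 males are the 2 arrays that stood apart. Their part in the globin differences was not tested.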

How the data were processed

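The authors deposited 1 table of log2 signals for 8 Affymetrix MG_U74Av2 arrays. Per the submitters' processing notes the signals were made with MAS5, with version, scaling and background steps not given in the sources used here. That the values are on a log2 scale was read from the deposited values. In the KO male E12.5 column 14 cells held date serial numbers and were set to missing; none belonged to the globins or Alas2. Arrays were shifted to the mean of their medians (7.51), values under the 40th percentile of all values (6.99) were set to it, and probe sets above it on at least 2 arrays were kept after 66 control probe sets were left out, which left 8452. A single gene was annotated for 10855 probe sets, more than 1 gene for 396 and no gene for 1193.

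All 8 arrays were fitted together in limma 3.58.1 (R 4.3.3) with terms for genotype and stage within each sex. Variances were moderated along an intensity trend. Two-sided p-values were adjusted by Benjamini-Hochberg across all 8452 probe sets, with a threshold of 0.05. The fit had 2 residual degrees of freedom and 2.77 prior ones. The script was tested on simulated data. The genes, lists and comparisons were chosen with earlier results of these data known. Of the red-cell, heme and regulator lists, the genes named are those that passed the female stage test, since most probe sets passed in males. Of the lists of other cells only Gp9 is named, as the brightest gene of its sum. Bpgm, which passed at E12.5 between the sexes, and Eif2s3y, Xist, Amh and Wnt4 were also named. The number of arrays limits the precision. Alternatives were other scalings, floors and filters, other models, and leaving out arrays.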

Additional observations from a re-analysis of the deposited data

Results flagged for a closer look

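The stage effect differed between the sexes, by the interaction test of limma with Benjamini-Hochberg adjustment, for 8 of the globin and Alas2 probe sets described, and was more negative in males for each. The differences, males minus females, were -0.40 for the adult β-globin probe set, -0.80 for Hbb-bh1, -1.74 for Hbb-b2, -1.36 for Hbb-y, -1.34 for the Hbb-y family probe set, -1.34 for the shared Hba-a1/Hba-a2 probe set, -0.91 for Alas2 and -0.31 for Hba-a1. In the same test 69% of all probe sets passed. Both E14.5 male arrays stood apart from the other 6, and their part in these differences was not tested. With any 1 array left out, the differences of Hbb-bh1 and Hbb-b2 passed each time, those of Alas2 and the shared α probe set missed the threshold without any of the male arrays, the Hbb-y family probe set without a WT male or any female array, and those of adult β-globin, Hbb-y and Hba-a1 each time.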

How the results depend on the processing

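No paired analysis was possible because each group has 1 array. In females 1949 probe sets passed the stage test, against 4526 without centring, 40 with no filter on low values and 0 without both E14.5 male arrays. Leaving out any 1 array, which leaves 1 residual degree of freedom, gave 0 to 0, so that no female call held there (1936 to 2737 had an unadjusted p under 0.05). For Hba-x the female value then ranged from -1.91 to -1.38. The E12.5 sex difference had 1377 calls, against 31 with no filter, 829 with genotype × stage terms and 0 without both E14.5 males, and 0 to 0 with 1 array left out. Calls over both sexes between stages were 6272, against 533 with an additive model, and for the mean sex difference 6068 against 12. With 1 array left out, calls ranged from 4826 to 5111 between stages over both sexes, 4982 to 6146 in males, 4130 to 4402 for the stage effect between the sexes and 4393 to 4707 for the mean sex difference. KO minus WT had 0 calls in every setting. In females Hbb-y passed without centring (-1.16), after quantile normalization (-0.90) and with no floor or a lower one (-0.91), its family probe set without centring (-0.77) and after quantile normalization (-0.65), and Hba-a1 did not pass without centring (0.12) or Hbb-bh1 after quantile normalization (-0.32). In males Alas2 passed without centring (-0.95). Signs turned in males for Hba-a1 without centring (-0.72) and after quantile normalization (-0.24) and for Alas2 after quantile normalization (0.041). They turned in females without centring for Gata1 (-0.072), Klf1 (-0.017) and Gfi1b (-0.0029). Leaving out 1 array moved the KO effect over both sexes across 0 for Hba-x (-0.25 to 0.12), Hbb-y (-0.18 to 0.30), its family probe set (-0.095 to 0.25), Hba-a1 (-0.073 to 0.011) and Hbb-b2 (-0.24 to 0.029), and the stage effect between the sexes for Hba-x (-0.72 to 0.019). Without both E14.5 males the KO effect was -0.18 for Hbb-y and -0.10 for its family probe set. The cause was not tested.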
